A study of Mus musculus with 6 samples.

Results

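The 34 genes described here carry glucose into the cell, break it down to pyruvate, turn pyruvate into lactate and move lactate out, or set how much pyruvate enters the mitochondrion. They were taken by symbol from a table of 28262 genes of mouse Sertoli cells, and all 34 had at least 1 row. *Aldoa* had 2 rows, which made 35 rows in all. The list holds 4 glucose transporters (*Slc2a1*, *Slc2a3*, *Slc2a4* and *Slc2a8*), the hexokinases *Hk1* and *Hk2* with the isomerase *Gpi1*, the phosphofructokinases *Pfkl*, *Pfkm* and *Pfkp*, the fructose-2,6-bisphosphate enzymes *Pfkfb2*, *Pfkfb3* and *Pfkfb4*, 9 genes from aldolase to pyruvate kinase, the lactate dehydrogenases *Ldha* and *Ldhb*, the monocarboxylate transporters *Slc16a1*, *Slc16a3* and *Slc16a7* with their chaperone *Bsg*, pyruvate dehydrogenase (*Pdha1*) with its kinases *Pdk1*, *Pdk2*, *Pdk3* and *Pdk4*, and the transcription factor *Hif1a*. They were chosen by function, with no threshold on their values, but with earlier results of these data known.

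RNA-seq libraries were made from Sertoli cells of 20-day-old C57BL/6 mice, 3 from *Pa1* F/F cells (control) and 3 from *Amh-pa1*-/- cells (knockout). *Pa1* encodes a subunit of histone methyltransferase complexes, and *Pa1* F/F cells carry floxed *Pa1* alleles. In *Amh-pa1*-/- mice a Cre recombinase under the *Amh* promoter, which is active in Sertoli cells, deletes these alleles; the control labels name no Cre. Cells of both genotypes were freed of unattached germ cells by washing and were kept in culture at 34 °C. In the study's culture protocol the medium held insulin, EGF and transferrin, and the sources used here name no other treatment.

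Sertoli cells are the nurse cells of the seminiferous tubule. They take up much glucose, carry most of it through glycolysis to pyruvate, and release lactate, on which spermatocytes and spermatids depend for energy. Hexokinase traps glucose in the cell, phosphofructokinase commits it to glycolysis, lactate dehydrogenase reduces pyruvate to lactate, and monocarboxylate transporters carry lactate across the membrane, while the pyruvate dehydrogenase kinases hold pyruvate back from the mitochondrion. HIF1A is best known for raising the transcription of many of these genes when oxygen is scarce.

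Total counts on genes lay between 14051353 and 16231443 in control and between 13203757 and 15247587 in knockout libraries. Within each genotype 1 library stood apart: control replicates 1 and 3 differed by a chi-square of 2.23 per degree of freedom against 20.0 and 18.5 in pairs with control replicate 2, and knockout replicates 1 and 2 by 1.68 against 30.5 and 28.6 in pairs with knockout replicate 3. The study calls its samples biological replicates, and the sources used here do not say whether the libraries came from separate animals, so that p-values measure the spread between these libraries, part of which may be technical. Reads of *Pa1* were not analysed here, and the genotypes rest on the labels. The Sertoli cell markers *Sox9*, *Wt1* and *Gata4* were present at 3172 to 8182 normalized counts (counts scaled to a common library size) in every library, whereas *Trf* and *Tsx* were at or near 0 and *Rhox5* was low. *Gata4* was present but lower in knockout libraries, at 4197 ± 153 against 7734 ± 521 in control (SD, n = 3).

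Markers of other cells moved with genotype. At an adjusted p-value under 0.05, 17.1% of all tested genes were lower and 18.2% higher in knockout cells. Of the Sertoli cell list 5 of 17 tested genes were lower and 1 was higher, and its summed level was 254409 to 258884 in control and 158678 to 198407 in knockout libraries, with *Clu* as the main contributor. Without knockout replicate 3, 7 of the 17 were lower and 6 were higher, against 21.2% and 21.9% of all genes in that fit. The Leydig cell list had 4 of 5 genes lower (12390 to 13805 against 2620 to 4899), although the defining markers *Insl3* and *Cyp17a1* were at or near 0 in all libraries. Of the macrophage list 8 of 11 were lower and 1 was higher (1915 to 2095 against 1224 to 1421), and without knockout replicate 3 it was 10 and 2 of 12. The peritubular myoid list had a summed level of 3276 to 4186 in control and 12186 to 18676 in knockout libraries and 1 of 6 genes higher, *Acta2*, at 3129, 2537 and 3239 in controls and 12312, 11886 and 15383 in knockout libraries. Knockout replicate 3 alone was high in *Myh11*, at 216, 164 and 1605 in the knockout libraries against 649, 481 and 580.0 in controls. Without that library 3 of the 6 were lower, *Myh11* (log2 fold change -1.58), *Actg2* (-1.40) and *Des* (-1.35), and *Acta2* was still higher (2.03). The endothelial list had 2 of 4 genes lower and 1 higher (1716 to 1806 against 944 to 1491), and the germ cell list 3 of 7 lower and 2 higher (4421 to 4952 against 3601 to 5756), with *Prm1*, *Tnp2*, *Acrv1* and *Stra8* near 0. The part of these shifts in the results was not tested, and in RNA from bulk cells fewer cells of a type and less RNA per cell cannot be told apart.

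Because HIF1A binds the core letters ACGTG or GCGTG, the 250 bases before the transcription start were read for the members with a RefSeq promoter on GRCm38.p6, and 3 are shown. *Hk2* and *Hif1a* had the smallest adjusted p-values of the members, and *Eno2* had the lowest log2 fold change. Bases that are also part of a GENCODE vM39 transcript are left out, which leaves 216 bases for *Hk2* (chr6:82774489-82774704, minus strand), 179 for *Hif1a* (chr12:73907617-73907795, plus strand) and 189 for *Eno2* (chr6:124769674-124769862, minus strand). The windows of *Pfkl* and *Pfkfb2*, the other members with a fall of at least 2-fold, lay wholly within such transcripts and are not shown. The sequences run 5′ to 3′ on the strand of the gene. Capitals mark ACGTG or GCGTG on either strand, so that CACGT is ACGTG read from the opposite strand.
Hk2: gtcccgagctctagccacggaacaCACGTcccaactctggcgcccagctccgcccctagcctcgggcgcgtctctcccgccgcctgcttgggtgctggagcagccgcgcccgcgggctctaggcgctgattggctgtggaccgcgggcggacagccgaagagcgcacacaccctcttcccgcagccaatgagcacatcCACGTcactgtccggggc
Hif1a: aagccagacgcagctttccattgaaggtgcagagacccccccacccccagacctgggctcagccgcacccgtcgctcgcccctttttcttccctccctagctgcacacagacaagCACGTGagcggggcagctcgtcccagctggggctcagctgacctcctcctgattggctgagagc
Eno2: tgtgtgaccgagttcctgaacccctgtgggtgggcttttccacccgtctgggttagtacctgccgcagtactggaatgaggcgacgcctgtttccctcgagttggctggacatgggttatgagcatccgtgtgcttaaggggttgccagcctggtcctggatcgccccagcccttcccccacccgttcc

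The *Hk2* window held ACGTG at 2 places, both shown. In the *Hif1a* window the palindrome CACGTG, which reads as ACGTG from both strands, is shown, and 1 further ACGTG lay in the transcribed bases. *Pfkl* and *Pfkfb2* each held 1 GCGTG, and *Eno2* held neither. Over the 30 members with a window, ACGTG was present in 12 (40.0%), against 21.4% of 10571 tested genes with a window, and GCGTG in 16 (53.3%) against 45.4%. By direction in the knockout, ACGTG was present in 5 of 13 members that were lower, in 2 of 3 that were higher and in 5 of 14 that were neither. TGACTCA, the letters bound by AP-1, was in none of the 30 windows and in 3.03% of all. A match describes the letters of the window and no binding.

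All 34 genes passed the filter on low counts and were tested among 14919 genes. At an adjusted p-value under 0.05 by edgeR's quasi-likelihood test, 13 were lower (38.2%, against a background of 17.1% of all tested genes) and 4 were higher (11.8%, against 18.2%) in *Amh-pa1*-/- cells. The other 17 did not pass. Without knockout replicate 3, the library that stood apart in the knockout, 15 were lower and 6 were higher, and of all genes tested in that fit 21.2% were lower and 21.9% higher, also more than with all libraries. When a change of at least 1 on the log2 scale in either direction was also asked for, 3 were lower (8.82%, against 6.56%) and 0 were higher, against 5.44%. The median log2 fold change was -0.24 over the members and 0.00 over all tested genes, and 24 of the members lay below 0. The 3 knockout libraries lay wholly below the 3 control libraries in 16 members (26.1% of all tested genes did so) and wholly above them in 6 (26.3%), together 64.7% of the members and 52.4% of all tested genes. Together the members held 0.568% ± 0.00314 of all counts in control and 0.484% ± 0.00519 in knockout libraries (SD, n = 3).

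**Figure D1:**
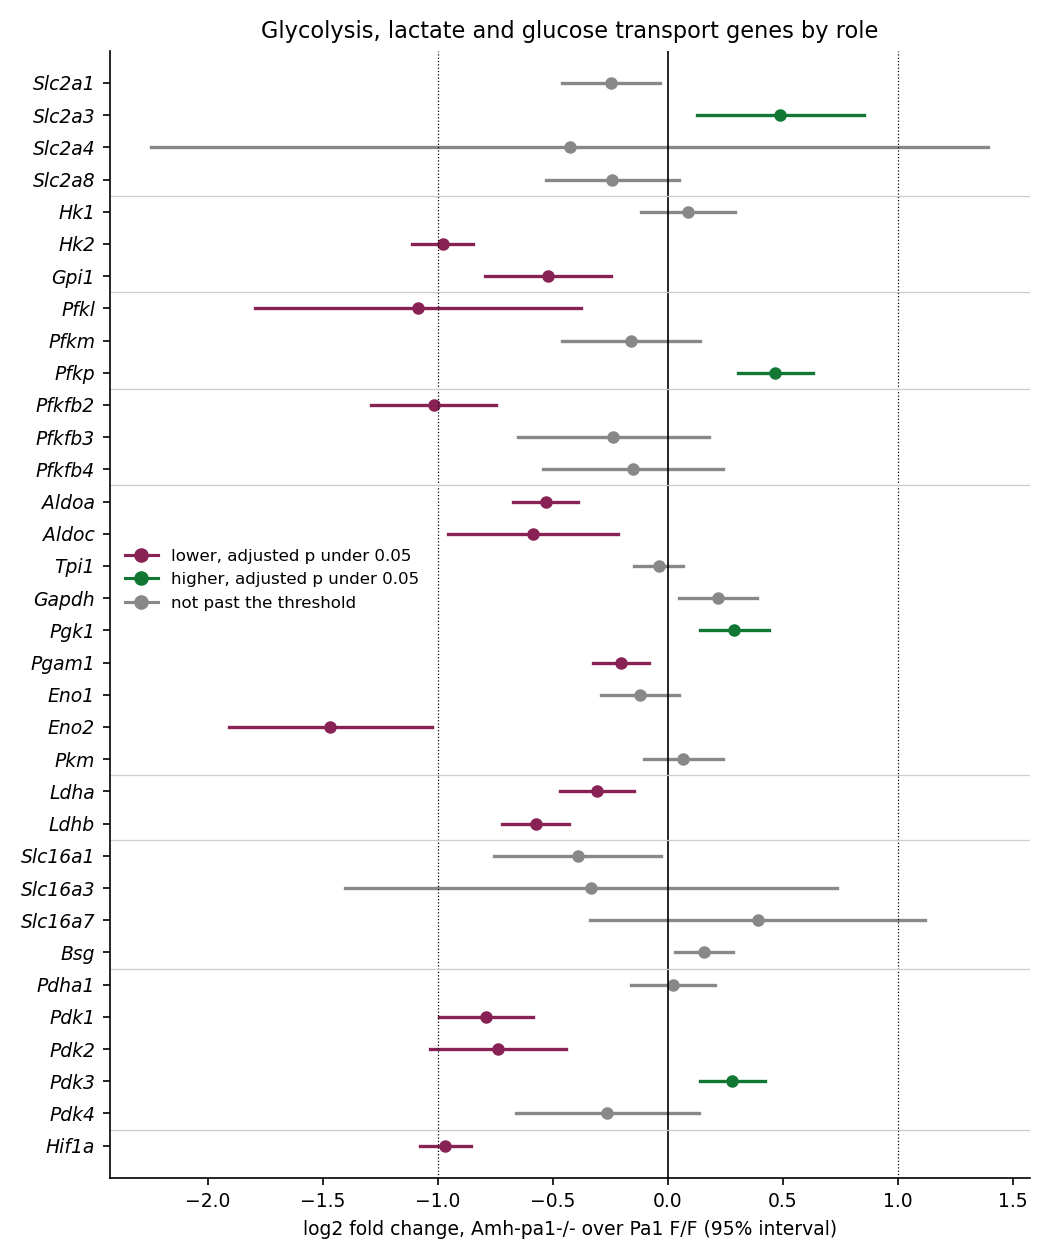
Log2 fold change of each member, *Amh-pa1*-/- over *Pa1* F/F, with its 95% interval from edgeR's quasi-likelihood fit of 3 against 3 libraries; members are grouped by role, grey lines part the roles and dotted lines mark a log2 fold change of -1 and 1. The 13 lower members lie left of 0, down to *Eno2* at -1.47, and the 4 higher ones stay under 0.50.

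Large falls were seen at the step that traps glucose and at the step that commits it. *Hk2*, the inducible hexokinase, had 6869, 6691 and 6542 normalized counts in control replicates 1, 2 and 3 and 3376, 3543 and 3283 in knockout replicates 1, 2 and 3. Its groups lay far apart, and its log2 fold change of -0.98 (SE 0.06, 95% interval -1.11 to -0.85, edgeR adjusted p = 0.000117) is a 1.97-fold fall, just short of the 2-fold threshold. *Hk1*, the hexokinase of most tissues, overlapped between genotypes (794, 944 and 842 against 963, 918 and 859), with an interval of the log2 fold change from -0.12 to 0.29. *Gpi1*, which converts glucose 6-phosphate to fructose 6-phosphate, fell from 2371 ± 56.2 to 1652 ± 265 (SD, n = 3; log2 fold change -0.52, SE 0.11, edgeR adjusted p = 0.0134). The lowest of its knockout values was that of replicate 3 (1797, 1813 and 1346), and without control replicate 3 its adjusted p was 0.0522.

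The phosphofructokinases went in opposite directions. *Pfkl*, the liver-type subunit, was at 3620.1, 3177 and 3601 normalized counts in control and at 1942, 2085 and 872 in knockout libraries. All knockout values were below all control values, and knockout replicate 3 was by far the lowest. The log2 fold change was -1.09 (SE 0.30, edgeR adjusted p = 0.0296), a 2.12-fold fall. That call was lost without control replicate 1, 2 or 3 or without knockout replicate 1 (adjusted p between 0.0529 and 0.0872), and without knockout replicate 3 the log2 fold change was -0.78 with an adjusted p of 0.000225. *Pfkp*, the platelet-type subunit, was higher instead, at 565, 572 and 626 against 793, 821 and 825, and no library of the genotypes overlapped. Its log2 fold change was 0.47 (SE 0.07, edgeR adjusted p = 0.0031). The span of *Pfkp* overlaps that of *Pitrm1* on the opposite strand, which was itself higher (log2 fold change 1.07). The sources name no strand setting for the counting, so reads from the shared stretch may not be assigned with certainty. Whether exons of the pair overlap was not examined. *Pfkm*, the muscle-type subunit, was at 278 ± 33.1 and 249 ± 23.7 (edgeR adjusted p = 0.361).

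Of the enzymes that make and remove fructose 2,6-bisphosphate, the strongest activator of phosphofructokinase, 1 of 3 changed. *Pfkfb2* fell from 352, 405 and 421 in the control to 191, 213 and 177 in the knockout libraries. All knockout values were below all control values, with a log2 fold change of -1.02 (SE 0.11, edgeR adjusted p = 0.0011). It remained below the p threshold with each library left out, at log2 fold changes between -1.09 and -0.96, while the fold threshold was missed without control replicate 2 (-0.996), control replicate 3 (-0.97) or knockout replicate 3 (-0.96). Its opposite-strand neighbour *Yod1* was higher (log2 fold change 0.56). *Pfkfb3*, whose product mostly makes the activator, was at 466, 399.9 and 469 and 425, 428 and 279.6, overlapping between genotypes (edgeR adjusted p = 0.331), and *Pfkfb4* was at 95.4 ± 9.39 and 86.0 ± 11.9 (edgeR adjusted p = 0.513). Summed over the 6 genes of hexokinase, isomerase and phosphofructokinase, the share of all counts was 0.0966% ± 0.0019 in control and 0.0588% ± 0.00608 in knockout libraries (SD, n = 3).

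**Figure D2:**
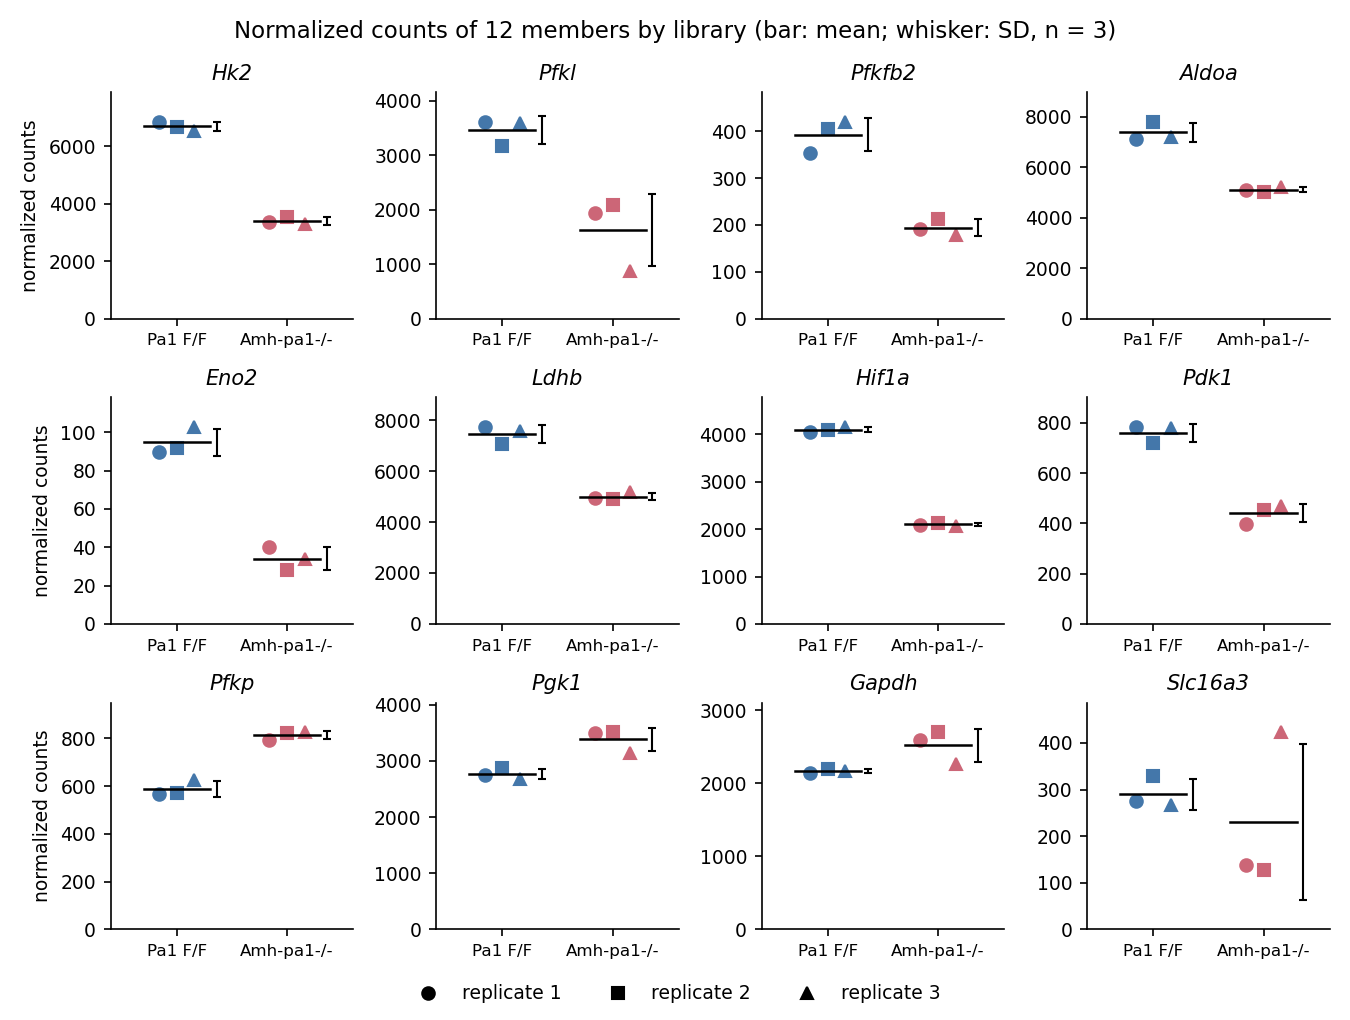
Normalized counts of 12 members in each of the 6 libraries, with the mean as a bar and the SD as a whisker (n = 3); each panel has its own axis, which starts at 0. *Hk2*, *Pfkfb2*, *Eno2* and *Hif1a* fall into separate groups with little spread, while for *Pfkl* and *Slc16a3* knockout replicate 3 lies away from the other knockout libraries, on the low side at 872 and on the high side at 423.

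From aldolase to pyruvate kinase the changes were smaller and mixed, with 4 of 9 genes lower and 1 higher. *Aldoa*, the main aldolase, which splits the phosphorylated sugar, fell from 7135, 7818 and 7219 to 5103, 5009 and 5224 normalized counts. The groups were well separated (log2 fold change -0.53, SE 0.06, edgeR adjusted p = 0.00116). Its second row, which overlaps the first, held between 0 and 3 counts and was not tested. *Aldoc*, the brain-type aldolase, fell from 108 ± 12.3 to 71.9 ± 6.48 (SD, n = 3; log2 fold change -0.59, edgeR adjusted p = 0.0257), a call that was lost without control replicate 1 (adjusted p 0.0825), control replicate 2 (0.0776) or knockout replicate 2 (0.0918). *Tpi1*, which interconverts the triose phosphates, hardly moved, at 2405 ± 26.1 against 2339 ± 42.5, and its interval of -0.15 to 0.07 on the log2 scale lay close around 0.

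*Gapdh*, which oxidises the triose phosphate and is widely used to normalise other transcripts, had 2144, 2192 and 2167 in the controls and 2598, 2699 and 2268 in the knockout libraries. Every knockout library exceeded every control library, and knockout replicate 3 was the nearest to the controls. The log2 fold change of 0.22 (SE 0.07, 95% interval 0.05 to 0.39) had an edgeR adjusted p of 0.0537, which misses the threshold, and without knockout replicate 3 it was 0.29 with an adjusted p of 0.00131. *Iffo1*, on the opposite strand across *Gapdh*, was lower (log2 fold change -0.64). *Pgk1*, the first step that yields ATP, rose from 2752, 2873 and 2688 to 3502, 3510.3 and 3143 (log2 fold change 0.29, SE 0.06, edgeR adjusted p = 0.0128). That call was lost without control replicate 1 (0.0527) or control replicate 3 (0.0603).

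*Pgam1*, the phosphoglycerate mutase, fell slightly, from 5772, 6044 and 5759 to 5141, 5045 and 5097. The groups did not overlap, yet the log2 fold change was only -0.20 (SE 0.05, edgeR adjusted p = 0.0225), and the call held without knockout replicate 3 and was lost without any other single library (adjusted p from 0.0582 to 0.0958). *Eno1*, the general enolase, was at 7297 ± 558 and 6709 ± 133 and did not pass (edgeR adjusted p = 0.225). *Eno2*, the enolase known from neurons, showed the lowest log2 fold change among the members. It had 89.7, 92.0 and 103 normalized counts in control and 40.0, 28.2 and 34.1 in knockout libraries, a 2.77-fold fall (log2 fold change -1.47, SE 0.19, edgeR adjusted p = 0.00177), and with each library left out the log2 fold change stayed between -1.60 and -1.34. *Pkm*, pyruvate kinase and the member with most reads, was at 13425, 13743 and 14000.5 and 14943, 14803 and 13409, overlapping between genotypes, with an interval of -0.10 to 0.24 on the log2 scale. Together the 9 genes held 0.283% of all counts in control and 0.270% in knockout libraries (SD 0.00719 and 0.00204, n = 3).

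Both lactate dehydrogenases fell. *Ldhb*, whose subunit is known to favour the oxidation of lactate, went from 7729, 7051 and 7562 to 4947, 4885 and 5167 normalized counts. The genotypes were clearly apart (log2 fold change -0.57, SE 0.06, edgeR adjusted p = 0.000897), a 1.49-fold fall. For *Ldha*, whose subunit favours the formation of lactate, the values were 3212, 3555 and 3198 against 2729, 2516 and 2806. The *Ldha* change was smaller (log2 fold change -0.31, SE 0.07, edgeR adjusted p = 0.0137), and without knockout replicate 2 it no longer passed (-0.25, adjusted p 0.0574).

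None of the 4 transport genes for lactate passed the test. *Slc16a1* (MCT1) was at 947, 797 and 941 in control and 765, 751 and 529 in knockout libraries. Its groups did not overlap, but the spread was wide (log2 fold change -0.39, SE 0.15, edgeR adjusted p = 0.0892). *Slc16a3* (MCT4), the exporter typical of glycolytic cells, was decided by 1 library, with 276, 328 and 266 in control and 139, 128 and 423 in knockout libraries. Knockout replicates 1 and 2 were below, and knockout replicate 3 above, every control. Over all libraries the log2 fold change was -0.33 (SE 0.45, edgeR adjusted p = 0.599), and without knockout replicate 3 it was -1.12 with an adjusted p of 0.00062. *Slc16a7* (MCT2) had few counts, 36.7 ± 5.73 and 48.0 ± 16.9 (SD, n = 3; edgeR adjusted p = 0.359). *Bsg*, basigin, which brings the transporters to the membrane, was at 5657, 5961 and 5753 and 6580.0, 6464 and 6326, higher in every knockout library, with a log2 fold change of 0.16 (edgeR adjusted p = 0.0584) and an adjusted p of 0.0139 without knockout replicate 3.

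At the entry of glucose, 1 of 4 transporters changed. *Slc2a3* (GLUT3), a high-affinity transporter, rose from 723, 494 and 628 to 920.5, 919 and 750.5 normalized counts. The groups did not overlap, but the spread within each was wide (log2 fold change 0.49, SE 0.15, edgeR adjusted p = 0.046). This call was lost without control replicate 2 (adjusted p 0.0790), control replicate 3 (0.110), knockout replicate 1 (0.126) or knockout replicate 2 (0.116). *Slc2a1* (GLUT1), the general transporter, was at 524, 608 and 546 and 445, 468 and 502, lower in every knockout library, with a log2 fold change of -0.25 (edgeR adjusted p = 0.0717) that passed without knockout replicate 3 (-0.29, 0.0365). *Slc2a8* (GLUT8), found mostly in internal membranes, overlapped between genotypes, at 419.6 ± 37 and 355 ± 45.7 (edgeR adjusted p = 0.165). *Slc2a4* (GLUT4), the insulin-responsive transporter of muscle and fat, had 2 to 14 counts in a library, and its normalized counts of 11.8, 2.90 and 14.7 in control and 1.95, 5.63 and 14.0 in knockout libraries overlapped (log2 fold change -0.43, 95% interval -2.25 to 1.39).

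At the exit of pyruvate towards the mitochondrion, the kinases that switch pyruvate dehydrogenase off did not move together. *Pdk1*, a kinase gene known to be induced by HIF1A, fell from 784, 718 and 778 to 399, 452 and 468 normalized counts (log2 fold change -0.79, SE 0.09, edgeR adjusted p = 0.000996). *Pdk2*, the most widely expressed kinase, fell from 289, 259 and 260.1 to 161, 183 and 141 (log2 fold change -0.74, SE 0.12, edgeR adjusted p = 0.00481). Neither gene overlapped between the genotypes. *Pdk3* rose, from 1429, 1405 and 1522 to 1813, 1808 and 1666 (log2 fold change 0.28, SE 0.06, edgeR adjusted p = 0.0118), and this call was lost without control replicate 1 (0.0571) or knockout replicate 1 (0.0504). *Pdk4*, a kinase of fasting and fat use, was at 102 ± 6.93 and 84.8 ± 14.5 (edgeR adjusted p = 0.262). The enzyme they act on did not change detectably, as *Pdha1* was at 781 ± 38.7 and 793 ± 54.8, with an interval of -0.16 to 0.21 on the log2 scale.

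*Hif1a* had the smallest adjusted p-value of the members. Its normalized counts were 4053, 4096 and 4156 in control and 2088, 2139 and 2068 in knockout libraries. Within each genotype the libraries differed by little, and the log2 fold change was -0.97 (SE 0.05, 95% interval -1.08 to -0.86, edgeR adjusted p = 8.06e-05), a 1.95-fold fall that stayed between -0.97 and -0.95 with each library left out. The antisense gene *Gm15283*, which overlaps it, fell as well (53.6 ± 7.18 to 15.8 ± 2.76) and held few counts beside it. Of 17 members that passed the p threshold, 9 passed it with each of the 6 libraries left out in turn, namely *Hk2*, *Pfkfb2*, *Aldoa*, *Eno2*, *Ldhb*, *Pdk1*, *Pdk2* and *Hif1a*, which were lower, and *Pfkp*, which was higher. All of these except *Pdk2* (adjusted p 0.0598) also passed with the close pairs of libraries summed, which leaves 2 libraries per genotype.

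Several steps are served by more than 1 gene, whose enzymes differ in kinetics or control, so the share of each family held by 1 isoform was computed from counts per transcript length. With 3 against 3 libraries the exact two-sided permutation test cannot go below p = 0.1, and over 8 families the smallest adjusted p is 0.133. *Hk2* held 81.1% ± 1.53 of hexokinase in control and 67.2% ± 1.18 in knockout libraries (SD, n = 3; exact permutation p = 0.1). The *Pfkp* share of phosphofructokinase was 12.2%, 13.5% and 13.3% in control and 25.8%, 24.9% and 40.8% in knockout libraries (exact permutation p = 0.1), so that all knockout libraries stood above all controls and replicate 3 highest. For *Slc2a3*, beside *Slc2a1*, the share was 54.9% ± 6.66 and 67.1% ± 3.90 (exact permutation p = 0.1). *Eno2* made up 1.06% ± 0.108 and 0.415% ± 0.0684 of enolase and *Pdk4* 3.08% ± 0.165 and 2.52% ± 0.395 of the kinases, each without overlap (exact permutation p = 0.1).

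For lactate dehydrogenase the *Ldhb* share was 71.4%, 67.3% and 71.1% in control and 65.3%, 66.9% and 65.7% in knockout libraries (exact permutation p = 0.1), a difference of -3.99 percentage points between the means. *Aldoc* held 0.786% and 0.757% of aldolase (exact permutation p = 1.0). The *Slc16a3* share of the monocarboxylate transporters was 14.7% and 14.1% in knockout replicates 1 and 2 and 42.7% in replicate 3, around 21.9%, 28.3% and 21.5% in the controls (exact permutation p = 1.0).

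**Figure D3:**
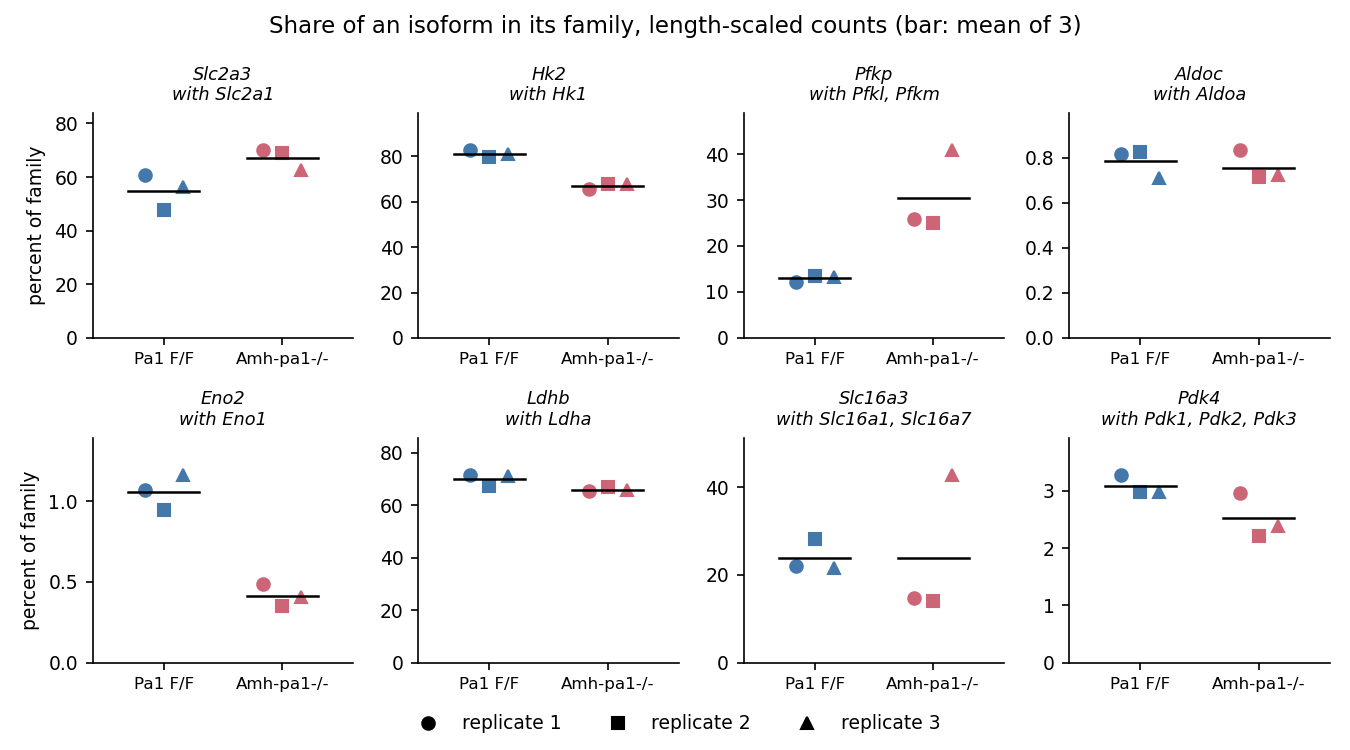
Share of 1 isoform in its family, in percent of length-scaled counts, in each of the 6 libraries, with the mean of 3 as a bar; each axis starts at 0. The shares of *Hk2* and *Eno2* are lower and those of *Slc2a3* and *Pfkp* higher in every *Amh-pa1*-/- library, and knockout replicate 3 stands alone at 42.7% for *Slc16a3*.

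Compared per transcript length, the members spanned a wide range of levels. In control cells *Pkm* was highest with 5606 ± 118 normalized counts per kb (SD, n = 3), followed by *Aldoa* with 4891 ± 246 and *Ldhb* with 4871 ± 231, which did not differ beyond their spread. *Pgam1* (3258 ± 89.4), *Bsg* (3201 ± 86.0) and *Eno1* (3182 ± 244) formed the next group, again within their spread, before *Ldha* with 2092 ± 127. *Gapdh* (1526 ± 17.0), *Pgk1* (1518 ± 51.4) and *Tpi1* (1496 ± 16.3) could not be ordered beyond their spread. *Hk2* (860 ± 20.9), *Pfkl* (845 ± 61.1) and *Gpi1* (817 ± 19.4) followed at a similar level. *Slc2a4* and *Slc16a7* were lowest, with 3.75 ± 2.35 and 3.32 ± 0.519.

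In knockout cells *Pkm* remained at the top with 5876 ± 346 per kb, and the next gene by level was *Bsg* with 3569 ± 70.2, above *Aldoa* with 3383 ± 71.5 and *Ldhb* with 3270 ± 97.1. *Ldha*, at 1690 ± 94.6, stood below *Pgk1* at 1855 ± 115, with *Gapdh* at 1776 ± 159 between them and within the spread of both. *Hk2* dropped to 436 ± 16.9 and *Pfkl* to 398 ± 162, under the 569 ± 91.4 of *Gpi1* and the 717 ± 33.8 of *Pdk3*. In the controls *Pdk3*, at 590 ± 25.1, had been below all of them and level with *Hif1a* at 599 ± 7.57.

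**Figure D4:**
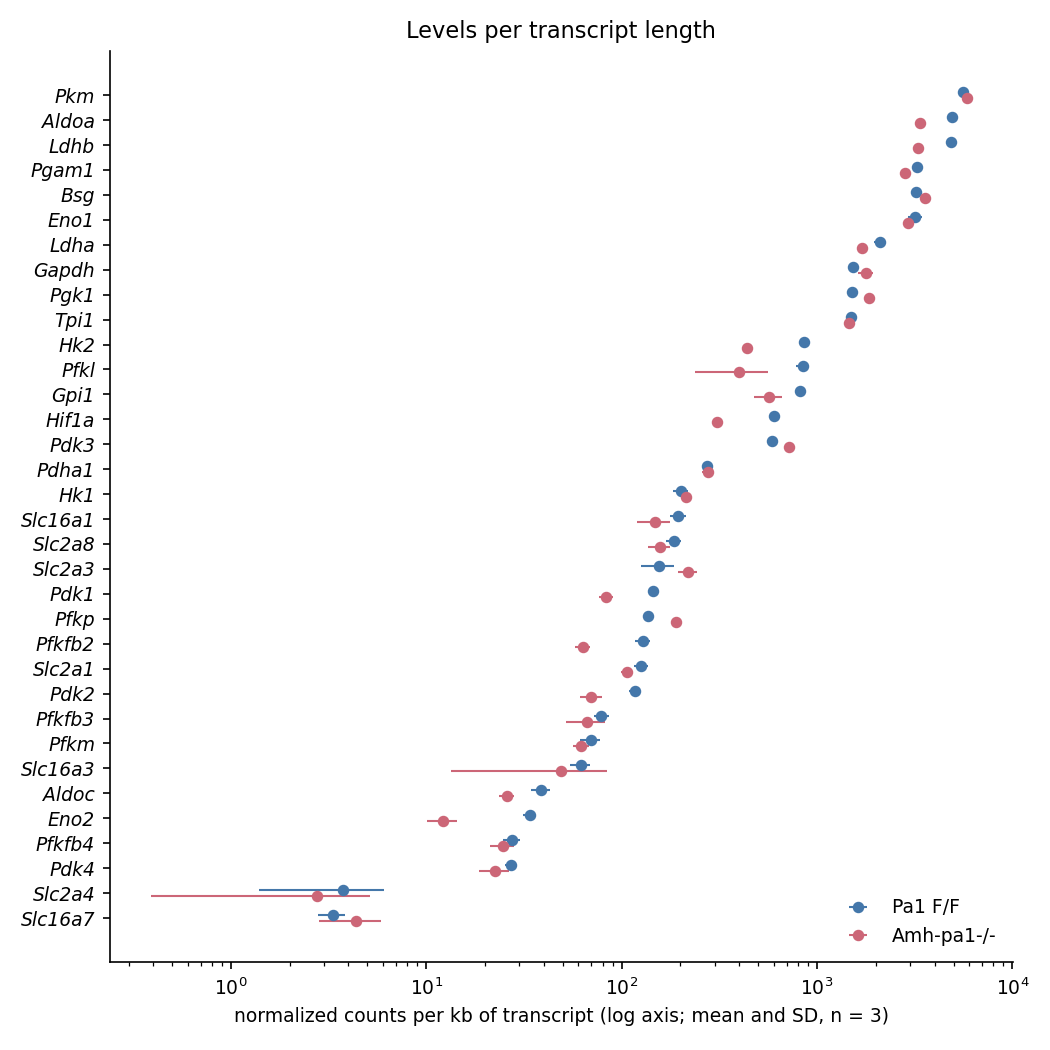
Level of each member as normalized counts per kb of transcript on a log axis, with the mean and SD of 3 libraries per genotype, ordered by the control level. *Pkm* leads in both genotypes and *Slc2a4* and *Slc16a7* are lowest, while the *Hk2*, *Pfkl*, *Hif1a* and *Eno2* points of *Amh-pa1*-/- cells lie to the left of their controls.

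The regulators around *Hif1a* were examined through a list of 31 genes of the HIF pathway and other controls of glycolysis, of which 29 were tested, 9 were lower and 3 were higher (17.1% and 18.2% of all tested genes). Without knockout replicate 3 it was 13 and 7 of 30, against 21.2% and 21.9% of all genes in that fit. *Egln3*, a prolyl hydroxylase that both marks HIF1A for breakdown and is induced by it, fell from 34.1 ± 7.83 to 6.91 ± 0.939 (SD, n = 3; log2 fold change -2.29, edgeR adjusted p = 0.00192). *Mlxipl*, which encodes the glucose-sensing factor ChREBP, fell from 363, 485 and 286 to 46.9, 95.8 and 96.2 (log2 fold change -2.25, edgeR adjusted p = 0.0025). *Bnip3* (log2 fold change -1.19), a mitophagy receptor, and *Adm* (-1.06), the peptide adrenomedullin, fell too, and both are known hypoxia-induced genes. The 3 that rose were *Vegfa*, *Egln1* and *Hif1an*. *Vegfa*, a further gene known to respond to HIF, had 1935, 1544 and 1692 in control and 2861, 2774 and 3588 in knockout libraries (log2 fold change 0.83, edgeR adjusted p = 0.00315). *Egln1* (0.52, 0.00234) and *Hif1an* (0.21, 0.0396) changed less. *Ddit4* (-0.79) and *P4ha2* (-0.57) also fell, while *Ndrg1* (0.37), *Ero1l* (0.30) and *P4ha1* (0.003) did not pass with all libraries. These genes, *Vegfa* included, were named after their values were seen, and the activity of HIF1A was not tested.

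Of 33 genes for pyruvate entry into the mitochondrion and the TCA cycle, 2 were lower (6.06%, against 17.1% of all tested genes) and 9 were higher (27.3%, against 18.2%), none of them by 2-fold. Without knockout replicate 3 the counts were 6 and 13, against 21.2% and 21.9% of all genes in that fit. The median log2 fold change of the list was 0.12, beside 0.00 over all tested genes, and its difference from the members was not tested. Named after their values were seen, *Idh3a*, a subunit of the NAD-dependent isocitrate dehydrogenase, rose from 2319.6 ± 86.3 to 3619 ± 64.5 (SD, n = 3; log2 fold change 0.64) and *Dlat*, the acetyltransferase of the pyruvate dehydrogenase complex, from 892 ± 39.3 to 1204 ± 41.1 (log2 fold change 0.43). The 2 lower genes, also named after their values were seen, were *Me2*, the mitochondrial malic enzyme, which fell from 3766 ± 36.1 to 2529.8 ± 181 (log2 fold change -0.57, edgeR adjusted p = 0.00107), and *Idh1*, the cytosolic NADP-dependent isocitrate dehydrogenase, which fell from 4782 ± 125 to 3425 ± 562 (-0.48, 0.0203). Among 31 further isoforms of glycolysis and transport, 23 were tested, 4 of them lower (17.4%, against 17.1% of all tested genes) and 2 higher (8.70%, against 18.2%). *Hk3*, the hexokinase of blood cells, was at 22.7, 14.5 and 23.1 in control and 2.93, 1.13 and 0 in knockout libraries, *Ldhd*, the D-lactate dehydrogenase, fell by 1.21 on the log2 scale, and *Slc2a13*, a myo-inositol transporter, rose by 1.11.

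Since *Gapdh* is a member and also a common reference, other reference genes of qPCR were read in the same fit. *Hprt* (log2 fold change 0.47, edgeR adjusted p = 0.00569) and *Ppia* (0.30, 0.00933) rose. *Actb* was at 27492, 25457 and 27150.3 in control and 33425, 33404 and 28359.9 in knockout libraries (log2 fold change 0.25, edgeR adjusted p = 0.0901), with knockout replicate 3 nearest to the controls, as for *Gapdh*, and without that library its log2 fold change was 0.33 with an adjusted p of 0.00422. The *Hk2* change relative to *Gapdh*, the difference of their log2 fold changes, was -1.20.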

How the data were processed

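Total RNA of the 6 Sertoli cell samples was sequenced after library construction with the NEBNext Ultra kit. Alignment by the authors was to GRCm38 (HISAT2 2.1.0), and the raw counts per gene and library that they obtained with HTSeq 0.6.0 and deposited were used here; the strand setting is not given in the sources used here. The deposited fold changes and p-values of the authors' own comparison, which the study made with DEGseq, were not used.

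Genes were filtered with filterByExpr (minimum count 10, total 15), scaled with TMM and tested in R 4.3.3 with edgeR 4.0.16 (quasi-likelihood F-test, genotype only, Benjamini-Hochberg over 14919 genes), after a check on simulated counts. TMM centres most genes on no change. Normalized counts are counts over the effective library size times its mean. Standard errors (SE) are the size of the log2 fold change over the square root of F. Levels per kb use the length of the Ensembl canonical transcript (GENCODE vM39). Isoform shares were compared by exact two-sided permutation. At these depths 3 counts correspond to 0.185 to 0.227 CPM, and intervals cover the spread between these libraries only.

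The members and all lists were chosen with earlier results of these data known. Every member is named; of other lists, genes past both thresholds, at most 6 a list by size of change, and of the reference genes those past the p threshold and *Actb*, of which some are not reported here. Alternatives were DESeq2 1.42.0 size factors and Wald test, limma-voom (limma 3.58.1), library size only, other count filters, each library left out, the replicate number as a block, and close pairs of libraries summed.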

Additional observations from a re-analysis of the deposited data

How the results depend on the processing

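The 34 members kept their direction and their side of the p threshold with DESeq2 size factors, DESeq2's Wald test and limma-voom, and the median over all tested genes stayed within 0.1 of 0 on the log2 scale in every setting. With library size only, *Gapdh* (adjusted p 0.029) and *Bsg* (0.041) passed; without a count filter *Pgam1* did not (0.0854), and with at least 10 counts in every library *Slc2a3* did not (0.0501) and *Slc2a4* was not tested. With 1 library left out, the members lower ranged from 10 to 15 and higher from 2 to 6, members past both thresholds from 1 to 3, and all genes lower from 1689 to 3257 and higher from 1761 to 3360 (with the fold threshold 796 to 1216 and 670 to 860). With close pairs of libraries summed, 7 members were lower and 1 was higher, of 674 genes lower and 708 higher (455 and 428 with the fold threshold), in a fit of 2 against 2 libraries, and *Slc2a3*, *Gpi1*, *Pfkl*, *Aldoc*, *Pgk1*, *Pgam1*, *Ldha*, *Pdk2* and *Pdk3* no longer passed. The log2 fold changes of *Slc2a4* and *Pdha1*, neither past the threshold, crossed 0 when 1 library was left out (-1.37 to 0.036 and -0.020 to 0.063), and the *Slc16a3* share difference, -0.05 percentage points, ranged from -9.48 to 4.81.

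Same-numbered libraries did not deviate together (correlations of 0.108, -0.164 and -0.179), and not every library correlated best with its own number, so the numbers do not pair the samples. With the replicate number as a block, *Slc2a3*, *Aldoc*, *Pgam1*, *Ldha* and *Pdk3* no longer passed, and the other members kept their direction and their side of the p threshold. The sign-flip test of the isoform shares over 3 pairs cannot go below 0.25.

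*Slc2a4* and *Slc16a7* had few counts, 2 to 14 and 26 to 62 a library, and their libraries overlapped between genotypes. With 3 libraries a genotype, small changes such as those of *Slc2a1*, *Gapdh* and *Bsg* lay on either side of the threshold by the choice of library.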

Other observations

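Beside glycolysis proper, of 15 tested genes of glycogen and gluconeogenesis 5 were lower in *Amh-pa1*-/- cells and 3 higher (17.1% and 18.2% of all tested genes). The glycogen phosphorylases split by isoform. *Pygl*, the liver-type phosphorylase, fell from 145, 144 and 171 normalized counts in control to 62.5, 52.9 and 81.2 in knockout libraries (log2 fold change -1.22, edgeR adjusted p = 0.00357), and *Pygm*, the muscle type, from 41.7, 58.1 and 73.4 to 19.5, 29.3 and 33.1 (-1.08, 0.0311). *Pygb*, the brain type and the most abundant of them, rose from 2732, 2846 and 2909 to 3879, 3845 and 4011 (0.47, 0.000969) and was named after its values were seen. The glycogen-targeting subunits of protein phosphatase also split, as *Ppp1r3c* fell (-1.59, 0.00786) and *Ppp1r3d* rose (1.02, 0.00338), while *Ppp1r3b* did not pass (-0.18, 0.551).

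In the pentose phosphate pathway, which draws on glucose 6-phosphate and returns sugars to glycolysis, 3 of 11 tested genes were lower (27.3%, against 17.1% of all tested genes) and 1 was higher (9.09%, against 18.2%), none by 2-fold. All 3 lower genes, named after their values were seen, had their lowest value in knockout replicate 3: *Taldo1*, transaldolase, was at 3483, 3373 and 3585 in control and 2615, 2537 and 1707 in knockout libraries (log2 fold change -0.61, edgeR adjusted p = 0.0229), *Pgd* at 2355, 2517 and 2572 and 1920.0, 1876 and 1445 (-0.51, 0.0133), and *Tkt*, transketolase, at 2510.0, 2768 and 2678 and 2375, 2206 and 1991 (-0.28, 0.0316). Without that library the log2 fold changes were -0.43, -0.38 and -0.21, each with an edgeR adjusted p under 0.05, and 3 genes of the pathway were lower and 4 higher, against 21.2% and 21.9% of all genes in that fit.

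*Eno1b*, a gene whose sequence resembles that of *Eno1*, was at 116, 147 and 138 in control and at 369, 399 and 118 in knockout libraries, so that knockout replicates 1 and 2 stood above, and replicate 3 within, the range of the controls (log2 fold change 1.14, edgeR adjusted p = 0.0767; without knockout replicate 3, 1.52 and 0.00014). Reads that match near-identical copies equally well may be left uncounted or be given to the wrong copy, so the *Eno1* and *Eno1b* values are uncertain. *Emb*, embigin, which like basigin escorts monocarboxylate transporters to the membrane, rose from 1102, 1229 and 1160.0 to 1815, 1786 and 2070.1 (log2 fold change 0.70, edgeR adjusted p = 0.00103) and was named after its values were seen.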
